A study of Mus musculus with 2 samples.

Results

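Naive CD8+ T cells of the mediastinal lymph node, the node that drains the lung, were examined in mice with ovalbumin (OVA)-induced asthma. The cells were chosen by their UMIs (unique molecular identifiers, each a counted RNA molecule) for a fixed set of genes. A member had at least 1 UMI of Cd3e, Cd3d and Cd3g together and at least 2 of Cd8a and Cd8b1 together. It had no UMI of Cd4, of the B cell genes Cd79a and Cd79b or of the cycling genes Mki67 and Top2a. At least 1 of the 3 naive genes Ccr7, Lef1 and Dapl1 was detected, and at most 1 of the 6 memory and effector genes Eomes, Ly6c2, Cxcr3, Nkg7, Ctla2a and Ccl5. This selected 1134 of 18100 cells, 608 of 9495 in the w/o butyrate group and 526 of 8605 in the w/ butyrate group. Because the members were selected on these 19 genes, the levels of those genes describe the choice and are no result.

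Both groups were WT mice of strain C57/B6J aged 5 to 13 weeks. All were sensitized with 50 µg OVA in alum on days 0 and 7, challenged with intranasal OVA on days 14 to 16 and killed on day 17, so the control mice also carried the allergic disease. The labels call the added treatment C4, which the series title and the study's text give as butyrate. The w/ butyrate mice in addition received butyrate, a short-chain fatty acid made by gut bacteria, by a route and dose not given in the sources used here for these libraries. Cells of 4 mice were pooled into 1 droplet library per group, so that no animal could be told from another and no test between groups was possible. Every 95% interval below covers counting error only, not the spread between mice, and PCR, capture or handling of a library cannot be told apart from the treatment.

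CD8+ T cells read antigen on MHC class I molecules through a T cell receptor that works with the CD8α and CD8β co-receptor chains. Before they meet antigen they circulate through lymph nodes, which they enter with the help of the chemokine receptor Ccr7 and leave along sphingosine-1-phosphate with the receptor S1pr1. They live on interleukin-7 and on weak self-recognition, and the factors Tcf7, Lef1, Klf2 and Foxo1 keep them quiescent. Type I interferon, released during infection or inflammation, induces a set of antiviral genes in nearly all cells, naive T cells included.

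The library w/o butyrate held 9681 cells and 59176459 UMIs as deposited, and that w/ butyrate 8932 cells and 58381292 UMIs. Filters on mitochondrial share (at most 10%) and on genes detected (at least 200) removed 186 and 327 cells. The libraries shared 25 cell barcodes, none of them between members. Members were deeper w/ butyrate, with a median of 6780.5 UMIs and 1852 genes per cell against 5690.5 UMIs and 1622 genes w/o butyrate. Their median mitochondrial share was 3.49% w/o and 3.55% w/ butyrate, and their median share of ribosomal protein genes was 44.7% and 44.9%. In total, 3501239 UMIs w/o and 3637827 UMIs w/ butyrate came from members, and levels are given as UMIs of a gene per 1000000 of these (CPM). Counts came from the 3′ ends of transcripts and were not scaled by transcript length.

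The share of naive CD8+ T cells was close in both libraries. They made up 6.40% (95% interval 5.92 to 6.91) of all cells w/o butyrate and 6.11% (5.62 to 6.64) w/ butyrate, a log2 ratio of -0.07 (-0.24 to 0.10). Of CD8+ T cells, taken as all cells that met the clauses on Cd3, Cd8, Cd4, Cd79 and cycling genes, members were 608 of 1413 (43.0%, 40.4 to 45.7) w/o and 526 of 1275 (41.3%, 38.5 to 44.0) w/ butyrate, a log2 ratio of -0.06 (-0.23 to 0.11). Both intervals include 0, so no difference was detectable at this depth. Members were deeper w/ butyrate, at a median of 6780.5 UMIs against 5690.5 w/o butyrate. Since the rule counts detected genes, membership depends on depth, and these shares were not taken at equal depth. With every cell thinned at random to the same number of UMIs before the rule, members numbered 765 w/o and 748 w/ butyrate. The first ratio was then 0.10, with an interval that also included 0. Under the alternatives given below, the first ratio ranged from -0.48 to 0.10 and the second from -0.47 to -0.01. Naive CD4+ T cells, chosen by the same clauses with Cd4 in place of Cd8 and without Foxp3, were 7.92% and 7.47% of all cells.

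The marker genes of the label were among those the rule used, so their levels describe the choice and do not check it. Cd8b1, the CD8β chain (GRCm38, chr6:71322788-71337494), stood at 1069 CPM w/o and 1094 CPM w/ butyrate, and Cd8a (chr6:71373427-71379173) at 451 CPM and 522 CPM. Lef1, a factor of naive and memory-precursor T cells (chr3:131110471-131224356), was detected in 92.4% and 92.6% of members against 2.54% and 3.12% of B cells, with a median of 4406 and 4645 UMIs per B cell. Ccr7 (chr11:99144196-99155077) was detected in 79.1% and 82.5% of members, but also in 43.1% and 40.4% of B cells, which use it too. Dapl1 (chr2:59484653-59505020), a gene known as a marker of naive T cells, was detected in 50.5% and 51.5% of members and in 0.927% and 0.917% of B cells. Dapl1 thus marked only part of the members, and its share was higher, 67.8% and 73.9%, in CD8+ T cells with 2 or more memory genes.

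Genes the rule did not use were compared as well. Tcf7 stood at 350.4 CPM w/o and 381.8 CPM w/ butyrate, and was about as high, at 344.8 CPM and 328.3 CPM, in CD8+ T cells with 2 or more memory genes. S1pr1 was at 329.6 CPM and 316.7 CPM, against 264.1 CPM and 239.0 CPM in those cells. Trac, the constant region of the T cell receptor α chain, was detected in 86.8% and 91.6% of members against 2.34% and 2.70% of B cells. Cd44, which antigen-experienced T cells carry at high levels, had 16 and 18 UMIs in all members together, or 4.57 CPM and 4.95 CPM against 22.4 CPM and 22.5 CPM in cells with 2 or more memory genes. Among the genes of a memory and effector list outside the rule, Il2rb was at 39.7 CPM and 38.8 CPM in members against 124.0 CPM and 109.1 CPM in those cells. S100a10 did not show this order, at 355.0 CPM and 339.8 CPM against 345.3 CPM and 322.8 CPM, nor did the factor gene Id2, at 126.5 CPM and 133.9 CPM against 110.8 CPM and 89.2 CPM. Since those cells were chosen by memory genes, this is a description. Of all 38 genes of that list, 7 had no UMI w/o butyrate and 7 none w/ butyrate. Gzmk, Cx3cr1, Klrc1 and Klrc2 were at 0 in both, which allows up to 3 UMIs in all members of a library as a one-sided 95% limit.

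Nkg7, which encodes a protein of cytotoxic granules (chr7:43437073-43438249), needs to be set apart from the other 5 memory genes. It was detected in 82.4% of members w/o and 87.6% w/ butyrate, at 465.8 CPM and 508.3 CPM. In naive CD4+ T cells, with a median of 5203 and 5919 UMIs per cell, the share was 1.60% and 2.33%, and in B cells 1.39% and 2.20%. Nkg7 was the single memory gene in 501 and 461 members, Ly6c2 in 22 and 10, and each of the other 4 genes in at most 4. The clause on at most 1 memory gene therefore worked, for most members, as the presence of Nkg7 and the absence of the other 5.

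The cells just inside and just outside that limit differed by degree. CD8+ T cells with 0, 1, 2 and 3 of the 6 memory genes numbered 79, 543, 399 and 181 w/o butyrate and 54, 481, 333 and 189 w/ butyrate. Of the cells with 2 memory genes, 394 and 331 met all other clauses, and in 286 and 207 of them the pair was Nkg7 and Ly6c2. Levels below for 2 memory genes are of these 394 and 331 cells. Those for 3 or more are of all CD8+ T cells with that many, 392 w/o and 407 w/ butyrate. Lef1 stood at 525 CPM in members with 1 memory gene, 438 CPM in cells with 2 and 345 CPM in cells with 3 or more w/o butyrate, and at 508, 495 and 341 CPM w/ butyrate. Ccr7 stood at 317, 281 and 229 CPM w/o and 312, 309 and 261 CPM w/ butyrate. Dapl1, which the rule used as a naive gene, was highest just outside the limit, at 420, 542 and 414 CPM w/o and 360, 583 and 428 CPM w/ butyrate. These 3 genes are part of the rule, which asked for at least 1 of them, so their levels are only described. The depth per cell went the same way as the number of genes detected, with medians of 5823, 6650.5 and 7949 UMIs w/o butyrate for 1, 2 and 3 or more memory genes.

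Other genes differed in steps over the same range. Ccr9, the receptor for the gut and thymus chemokine Ccl25, stood at 148 CPM in members with 1 memory gene, 75.2 CPM in cells with 2 and 17.6 CPM in cells with 3 or more w/o butyrate, and at 129, 58.6 and 22.6 CPM w/ butyrate. Itgae, the integrin αE chain (CD103), went from 53.6 to 29.5 and 9.72 CPM w/o and from 67.4 to 39.8 and 13.3 CPM w/ butyrate. Plac8 went the other way, from 182 to 305 and 378 CPM w/o and from 132 to 211 and 318 CPM w/ butyrate. Il2rb, the shared β chain of the interleukin-2 and interleukin-15 receptors, was at 38.8, 53.1 and 183 CPM w/o butyrate, and at 40.2, 50.9 and 147 CPM w/ butyrate. The order of these steps from 1 memory gene on was the same in both libraries. Members with 0 memory genes, only 77 and 50 cells, had Itgae at 75.7 CPM w/o and 39.6 CPM w/ butyrate, above and below the members with 1.

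**Figure D1:**
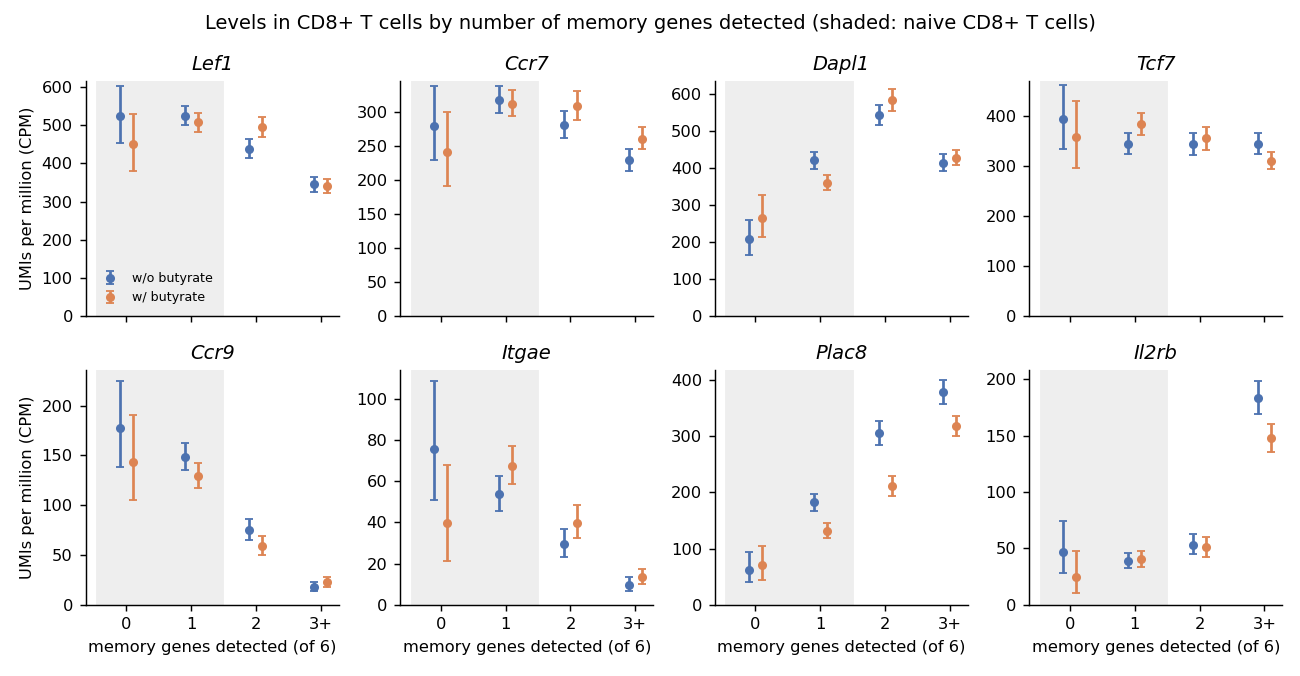
Level (CPM, with 95% Poisson intervals for counting error) of 8 genes in CD8+ T cells with 0, 1, 2 and 3 or more of the 6 memory genes detected, w/o butyrate in blue and w/ butyrate in orange, with naive CD8+ T cells shaded. Ccr9 and Itgae step down from 1 memory gene to 3 or more in both libraries, Plac8 steps up, and Dapl1 is highest in cells with 2 memory genes.

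Other clauses left cells just outside too. A UMI of Cd79a or Cd79b kept out 262 and 238 cells that met every other clause, a Cd4 UMI 19 and 18, a cycling gene 32 and 20, and a single Cd8a or Cd8b1 UMI 68 and 57. Among members, 25 w/o and 3 w/ butyrate had exactly 2 Cd8a and Cd8b1 UMIs, and the median was 8 and 11. Of the 3 naive genes, 1 was detected in 88 and 70 members, 2 in 298 and 246, and all 3 in 222 and 210.

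Set against naive CD4+ T cells of the same library, naive CD8+ T cells differed mainly in a short list of genes. Of 5537 genes with at least 100 UMIs over both cell types in each library, 36 (0.65%) were at least 2-fold higher in naive CD8+ T cells in both libraries and 34 (0.614%) at least 2-fold lower. The rule itself placed Cd8a and Cd8b1 among the former and Cd4 among the latter. Nkg7, a rule gene that the limit on memory genes allowed alike in both cell types, was also among the former, which leaves 33 genes outside the rule on each side. Fold changes are on the scale of log2(CPM + 5), which draws those of low genes toward 0. Since both cell types were chosen by their RNA, these differences are a description without a test. The rule for the 24 genes named by rank required the same direction in both libraries.

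Several receptor and adhesion genes were higher in naive CD8+ T cells. Ccr9 (chr9:123678439-123784330) stood at 151.4 CPM in naive CD8+ and 3.21 CPM in naive CD4+ T cells w/o butyrate, and at 130.6 CPM and 2.01 CPM w/ butyrate, log2 differences of 4.25 and 4.27. It was detected in 47.9% and 46.2% of naive CD8+ T cells against 1.60% and 1.24% of naive CD4+ T cells. Klrd1, which encodes the CD94 chain of natural killer receptors (chr6:129591782-129598775), was at 202.2 CPM against 20.8 CPM w/o and 179.5 CPM against 18.9 CPM w/ butyrate (3.01 and 2.95). Its partner genes Klrc1 and Klrc2 had no UMI in members. Itgae was at 56.0 CPM against 1.48 CPM and 64.9 CPM against 0.755 CPM (3.23 and 3.60), and Cxcr6, a chemokine receptor, at 59.1 CPM against 2.47 CPM and 58.3 CPM against 0.755 CPM (3.10 and 3.46). Cxcr6 is also the most abundant gene of a γδ T cell marker list, in which Sox13, Cd163l1 and Il17a were at 0 in members of both libraries. Trdc of the same list was not at 0, with 47 UMIs w/o and 29 UMIs w/ butyrate in members. That is 13.4 CPM and 7.97 CPM, against 9.14 CPM and 6.29 CPM in naive CD4+ T cells.

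The other genes higher in naive CD8+ T cells had various roles. Runx3, the factor that establishes the CD8 lineage and silences Cd4, was at 163.7 CPM against 49.9 CPM w/o and 178.4 CPM against 46.8 CPM w/ butyrate (1.62 and 1.82). Plac8 (chr5:100553725-100572245) was at 169.1 CPM against 4.45 CPM and 126.2 CPM against 3.27 CPM (4.20 and 3.99). However, B cells carried it as well, with a UMI in 61.8% and 56.2% of them. Ctsw, a cathepsin of cytotoxic lymphocytes, was at 151.7 CPM against 24.2 CPM and 154.5 CPM against 38.5 CPM (2.42 and 1.87). Fam241a (3.15 and 3.05), Dnajc15 (1.80 and 1.86), Epsti1 (1.56 and 1.61), Rgcc (1.16 and 1.32), Slc25a4 (0.9997 and 0.992), AW112010 (0.95 and 1.13) and the class Ib gene H2-Q6 (1.08 and 0.91) completed the 12 highest genes at 100 CPM or more, given as log2 differences w/o and w/ butyrate.

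Genes lower in naive CD8+ T cells included some of the CD4 lineage. Zbtb7b, the factor ThPOK that sets the CD4 lineage, was at 1.14 CPM in naive CD8+ and 34.3 CPM in naive CD4+ T cells w/o butyrate and at 0.550 CPM and 32.9 CPM w/ butyrate (-2.68 and -2.77). Cd40lg, the helper T cell ligand, had 1 and 5 UMIs in all members against 239 and 182 in naive CD4+ T cells. Ly6c1 was at 1.43 CPM against 150.7 CPM and 3.85 CPM against 126.8 CPM (-4.60 and -3.90). Pdlim4 (-3.12 and -3.58), Ly6a (-1.82 and -2.20), Trat1 (-1.77 and -2.02), Tesc (-1.72 and -1.75), Izumo1r (-2.04 and -1.41), Igfbp4 (-1.45 and -1.41), Foxn3 (-1.38 and -1.44), Tspan32 (-1.32 and -1.78), Trib2 (-1.49 and -1.31), Gpr183 (-1.15 and -1.08) and Cd5 (-1.27 and -1.07) were the others of the 12 lowest. Cd5, a brake on T cell receptor signalling whose level follows self-recognition, was at 67.1 CPM against 169.2 CPM and 77.0 CPM against 167.3 CPM.

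**Figure D2:**
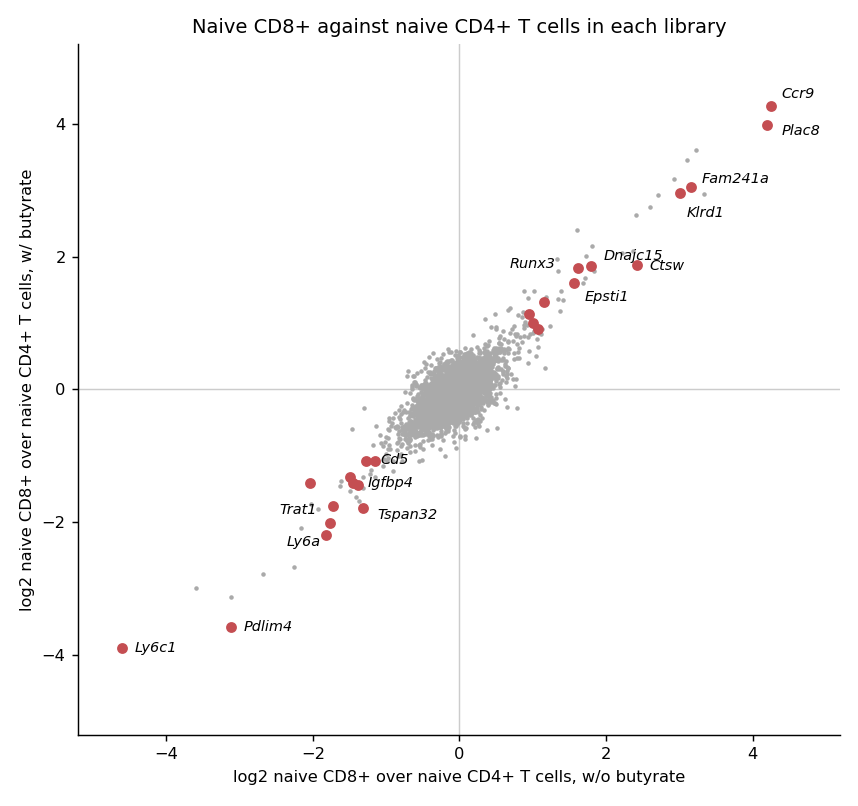
Log2 difference of naive CD8+ over naive CD4+ T cells, on the scale of log2(CPM + 5), w/o butyrate on the x axis and w/ butyrate on the y axis, 1 point per gene, without the genes of the rule and with the 24 genes named by rank in red. Ccr9 and Plac8 lie near 4 on both axes and Ly6c1 lies lowest, at -4.60 and -3.90.

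The T cell receptor genes differed little between the 2 cell types. Of 22 genes for the receptor complex and its first signalling steps, 19 outside the rule passed the UMI limit, with a median log2 difference of -0.19 w/o and -0.16 w/ butyrate. Only Cd5 was 2-fold lower in both libraries, and none was 2-fold higher. Cd28, the co-stimulatory receptor, was at 129.95 CPM against 263.6 CPM and 106.1 CPM against 228.6 CPM (-0.99 and -1.07), and Thy1 at 348.4 CPM against 228.8 CPM and 392.3 CPM against 258.1 CPM (0.60 and 0.59). A variable segment of the β chain (Trbv) could be assigned in 87 of 608 members w/o and 86 of 526 w/ butyrate. Trbv12-2 was the segment in 14.9% (8.20 to 24.2) and 17.4% (10.1 to 27.1) of these, against 7.75% (3.93 to 13.4) and 7.09% (3.45 to 12.7) of the 142 and 141 assigned naive CD4+ T cells. Trbv2 was in 6.90% (2.57 to 14.4) and 4.65% (1.28 to 11.5) of members, against 17.6% (11.7 to 24.9) and 10.6% (6.08 to 16.9) of naive CD4+ T cells. Trbv31 was in 1.15% (0.0291 to 6.24) and 3.49% (0.725 to 9.86) against 7.04% (3.43 to 12.6) and 9.93% (5.54 to 16.1). The intervals overlapped in each library for Trbv12-2, Trbv2 and Trbv31.

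Comparing members w/ butyrate with those w/o butyrate addressed how supplementation relates to the RNA of these cells. Most genes were alike. Of 5517 genes with at least 100 UMIs over both libraries, 32 (0.58%) were at least 1.5-fold lower w/ butyrate and 16 (0.29%) at least 1.5-fold higher, and the median log2 ratio was 0.02. The lower count ranged from 5 to 71 and the higher count from 0 to 68 under the alternatives given below. In naive CD4+ T cells 47 of 5902 genes (0.796%) were at least 1.5-fold lower and 11 (0.186%) at least 1.5-fold higher. The ratios of both cell types come from the same 2 libraries and are not independent. At 100 CPM or more in one library, 5 genes were 1.5-fold lower in members (Isg15, Bst2, Ifi27l2a, Rnf213 and Igkc) and none was 1.5-fold higher.

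Interferon response genes were lower w/ butyrate throughout. This list, like the other gene lists, was chosen with earlier results of these data known. Its counts beside those of all genes are therefore a description and no independent support. Of 46 genes on the list, 39 passed the UMI limit. All 39 had a log2 ratio below 0, against 45.3% of all genes tested. Their median was -0.54, with values from -1.47 to -0.13, and 32 of the 39 had an interval below 0, against 6.36% of all genes tested. The 15 list genes at least 1.5-fold lower made up 46.9% of the 32 genes called and 38.5% of the 39. In naive CD4+ T cells all 40 list genes that passed were below 0, with a median of -0.65, and 26 were at least 1.5-fold lower.

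Antiviral effectors were among the lower genes. Isg15, a ubiquitin-like protein that is conjugated to other proteins (chr4:156199424-156200818), had 553 UMIs (157.9 CPM) w/o and 248 UMIs (68.2 CPM) w/ butyrate, a log2 ratio of -1.16 (-1.43 to -0.99). Its ratio ranged from -2.46 to -1.12 under the alternatives given below. Ifit3, which binds viral RNA in a complex with Ifit1, was at 77.1 CPM and 24.7 CPM, a log2 ratio of -1.47 (-2.001 to -1.29). For Ifit1 the levels were 82.3 CPM and 39.0 CPM (-0.99, -1.38 to -0.78). Bst2, or tetherin, which holds budding virus at the cell surface (chr8:71534255-71537456), was at 267.3 CPM and 140.5 CPM (-0.90, -1.09 to -0.77). Ifi27l2a (chr12:103442167-103443680) had the most UMIs of the list, 2641 and 1522, or 754.3 CPM and 418.4 CPM (-0.84, -0.94 to -0.76).

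Regulators of the response differed by unequal amounts. Irf7, the factor that amplifies interferon production, was at 89.97 CPM w/o and 35.7 CPM w/ butyrate (-1.22, -1.64 to -1.03). Usp18, which removes Isg15 from proteins and restrains receptor signalling, was at 41.1 CPM and 16.8 CPM (-1.08, -1.75 to -0.85). Irf9, a factor of the response to type I interferon, was at 62.5 CPM and 50.3 CPM (-0.29, -0.61 to -0.02). Stat2, with 72 and 53 UMIs, had an interval that included 0 (-0.39, -1.04 to 0.03). The Ifi200 family members Ifi213, Ifi206, Ifi209, Ifi203 and Ifi208 lay between -0.56 and -0.38. GTPases known for induction by interferon γ, which act on intracellular parasites, were lower too, from Iigp1 (-0.74) and Gbp7 (-0.55) through Gbp2 (-0.53), Irgm1 (-0.43), Igtp (-0.34) and Ifi47 (-0.33) to Gbp4 (-0.17, -0.42 to 0.07). Samhd1 was closest to 0 on the list, at 140.8 CPM and 127.8 CPM (-0.13, -0.33 to 0.05).

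**Figure D3:**
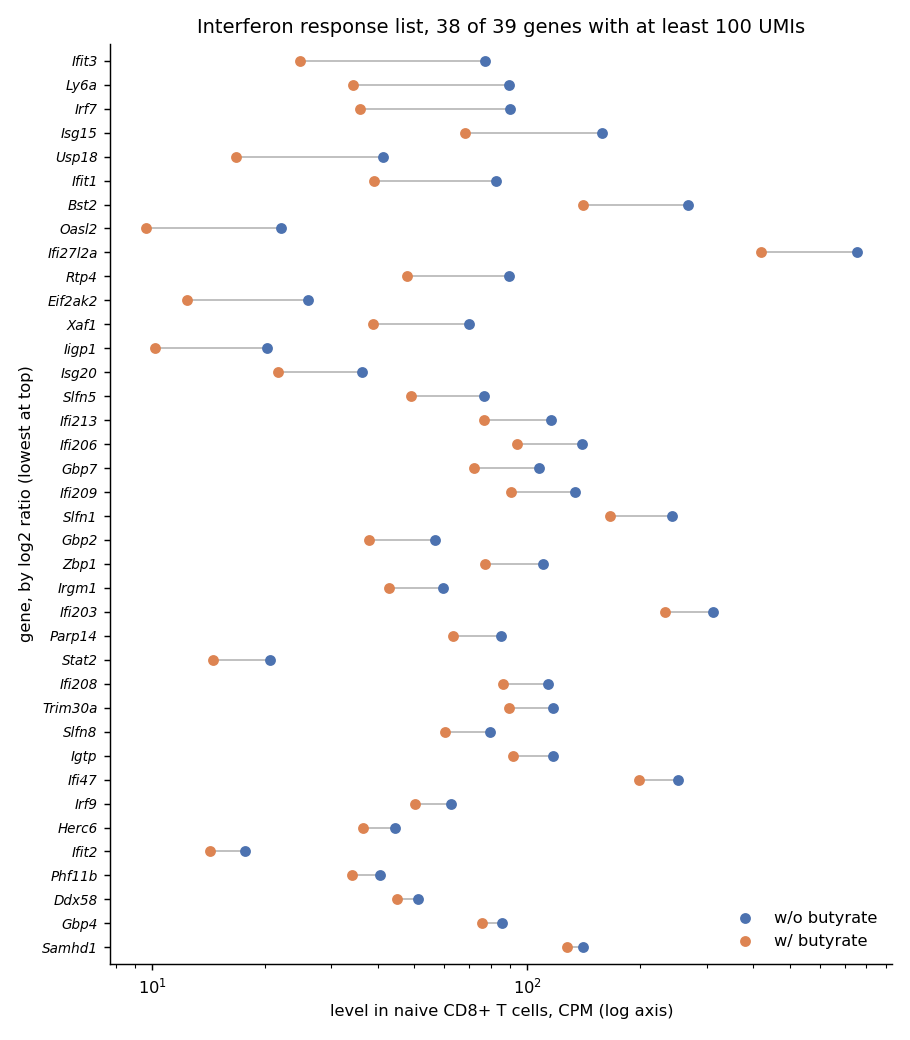
Level in naive CD8+ T cells (CPM, log axis) of 38 of the 39 interferon response genes with at least 100 UMIs, w/o butyrate in blue and w/ butyrate in orange, 1 row per gene and sorted by log2 ratio. The orange point lies left of the blue one in all 38 rows, and the gap narrows from Ifit3 (77.1 to 24.7 CPM) to Samhd1 (140.8 to 127.8 CPM).

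The receptors for interferon showed no common direction. Ifnar1 and Ifnar2, the chains for type I interferon, were at 41.4 CPM and 32.8 CPM w/o and 35.7 CPM and 32.4 CPM w/ butyrate, with intervals that included 0 (-0.57 to 0.14 and -0.40 to 0.37). Ifngr1, the ligand-binding chain for interferon γ, was at 106.8 CPM and 71.2 CPM (-0.55, -0.82 to -0.35), while Ifngr2 was at 31.7 CPM and 37.1 CPM (0.20, -0.15 to 0.60). MHC class I presentation genes, many of which interferon also induces, were slightly lower on balance, with a median of -0.08 over 21 genes, none past 1.5-fold. Of these, 17 were below 0 and 7 had an interval below 0, against 45.3% and 6.36% of all genes tested, and in naive CD4+ T cells 20 of 21 were below 0. B2m, the light chain of class I, was at 2119 CPM and 2006 CPM (-0.08, -0.13 to -0.03), and H2-Q6 had the lowest ratio of these genes, at 151.9 CPM and 117.1 CPM (-0.36, -0.56 to -0.19).

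Promoter sequence was examined because the list members were lower together. The search was for GAAA, any 2 bases and GAAA again, the core of the interferon-stimulated response element, on both strands of the 250 bases before each gene's start in RefSeq (GRCm38.p6). It was present in 936 of 27025 genes (3.46%) and in 166 of the 4413 genes tested that had an entry (3.76%). Of the 35 list genes with an entry, 20 (57.1%) held it. Among the 12 lowest genes at 100 CPM or more, 5 of the 9 with an entry held it, and among the 12 highest 0 of 10. Of all genes at least 1.5-fold lower, 6 of the 23 with an entry held it, and 1 of the 13 outside the list did. Irf7, Oasl2, Eif2ak2, Xaf1 and Rnf213, with ratios from -1.22 to -0.77, had no match. These counts describe letters in a window, and the list was drawn up from known interferon targets, so that its share is not an independent finding. For 4 genes with low ratios, chosen because they hold a match, the stretch up to the last base before the start is given, 5′ to 3′ in the direction of the gene, with each match in capitals, which on the other strand reads TTTC, any 2 bases and TTTC. The matches begin 78 bases before the start in Isg15, 130 in Bst2, 104 in Ifit1 and 156 in Ifit3. In Isg15 the capitals hold 3 overlapping matches and in Bst2 2 overlapping matches, while Ifit1 and Ifit3 each hold 2 separate ones.
Isg15 (chr4:156200819-156200918, minus strand): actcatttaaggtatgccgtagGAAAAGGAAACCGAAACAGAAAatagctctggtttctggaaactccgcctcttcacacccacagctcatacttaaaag
Bst2 (chr8:71537473-71537612, minus strand): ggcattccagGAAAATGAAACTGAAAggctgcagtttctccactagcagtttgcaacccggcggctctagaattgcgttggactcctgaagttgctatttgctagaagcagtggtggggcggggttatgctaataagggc
Ifit1 (chr19:34640775-34640888, plus strand): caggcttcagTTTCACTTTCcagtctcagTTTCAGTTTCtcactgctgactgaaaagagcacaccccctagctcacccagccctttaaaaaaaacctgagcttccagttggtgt
Ifit3 (chr19:34583363-34583528, plus strand): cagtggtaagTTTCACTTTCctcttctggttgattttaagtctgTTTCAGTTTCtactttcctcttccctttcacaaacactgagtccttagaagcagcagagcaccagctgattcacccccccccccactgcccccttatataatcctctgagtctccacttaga
A pair of Ifi200 genes shared the same match, GAAATCGAAA. In both it is flanked by nearly the same letters, which are shown for comparison.
Ifi213 (chr1:173599273-173599372, minus strand): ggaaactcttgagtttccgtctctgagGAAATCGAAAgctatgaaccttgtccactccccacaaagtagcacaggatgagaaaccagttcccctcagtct
Ifi206 (chr1:173491319-173491418, minus strand): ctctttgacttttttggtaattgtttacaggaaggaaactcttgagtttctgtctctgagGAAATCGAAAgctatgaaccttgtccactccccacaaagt
Ifi213 was at 115.4 CPM w/o and 76.4 CPM w/ butyrate (-0.56) and Ifi206 at 139.9 CPM and 94.0 CPM (-0.55). Reads of such near-identical genes may be split between them, so their separate values are uncertain.

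The difference was spread over many cells, and cells with many interferon response UMIs were fewer w/ butyrate. To compare cells of unequal depth, each was thinned at random to 2000 UMIs, which left out no member. A member then held a median of 7 interferon response UMIs w/o and 5 w/ butyrate, a mean of 9.78 and 6.26. In the upper tail, 6.25% of members w/o and 1.52% w/ butyrate held 25 or more, while the highest count in a cell was 57 and 78. At least 5 such UMIs were found in 454 of 608 members (74.7%, 71.0 to 78.1) w/o and 304 of 526 (57.8%, 53.4 to 62.1) w/ butyrate, a log2 ratio of -0.37 (-0.58 to -0.16). Among the thinned members, 0.658% w/o and 2.66% w/ butyrate held no such UMI. Without thinning the shares with at least 5 were 98.4% and 96.6%, since nearly every whole cell passed 5 UMIs. Isg15 alone was detected in 203 of 608 and 121 of 526 unthinned members, with at most 19 and 12 UMIs in a cell.

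Other cell types of the same libraries showed lower shares w/ butyrate as well. Thinned in the same way, the share with at least 5 UMIs was 82.1% and 61.8% in naive CD4+ T cells, 75.9% and 49.5% in CD8+ T cells with 2 or more memory genes and 60.8% and 42.2% in B cells. The log2 ratios were -0.41 (-0.60 to -0.23), -0.62 (-0.81 to -0.43) and -0.53 (-0.62 to -0.44), against -0.37 (-0.58 to -0.16) in naive CD8+ T cells. Their intervals overlap with that of the members, and a difference between cell types was not tested.

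**Figure D4:**
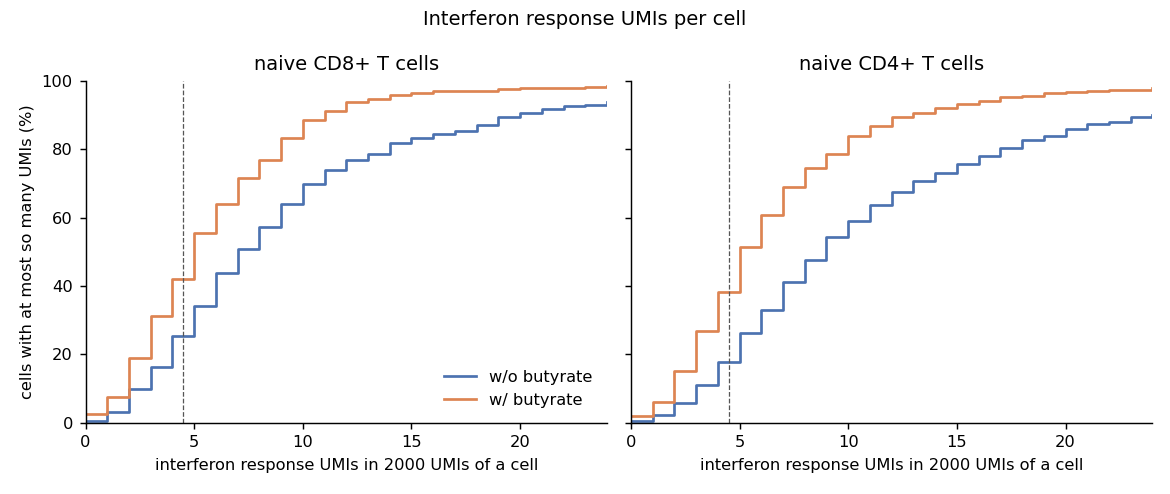
Cumulative share of cells (%) by the number of interferon response UMIs among 2000 UMIs of the cell, up to 24, for naive CD8+ T cells (left) and naive CD4+ T cells (right), w/o butyrate in blue and w/ butyrate in orange, with the dashed line just below 5 UMIs. The orange curve lies above the blue one over the whole range in both panels, so cells w/ butyrate held fewer such UMIs.

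Outside the interferon list and the rule, 16 genes were at least 1.5-fold lower, and Il7r was just short of it. Il7r, the receptor chain for interleukin-7 on which naive T cells depend (chr15:9505788-9530176), had 2069 UMIs (590.9 CPM) w/o and 1446 UMIs (397.5 CPM) w/ butyrate, a log2 ratio of -0.57 (-0.67 to -0.47). It was detected in 87.7% of members w/o and 76.0% w/ butyrate although these were deeper. In naive CD4+ T cells Il7r was at 652.8 CPM and 467.6 CPM (-0.48). Rnf213, a large ubiquitin ligase, was at 119.7 CPM and 66.8 CPM (-0.80, -1.08 to -0.61), Oas3, a sensor of double-stranded RNA, at 25.7 CPM and 12.1 CPM (-0.84), and Gbp9 at 66.8 CPM and 40.7 CPM (-0.65). Besides these and Igkc, the 16 were Trnp1, Kat2b, Asb13, Tmem115, Ubap1, Zrsr1, Kat8, Bbc3, Sirt1, Htatip2, Fam46c and Zc3h8, with ratios from -0.81 (Trnp1) to -0.59 (Zc3h8), all below 45 CPM w/o butyrate. Of the 16, only 4 (Rnf213, Oas3, Gbp9 and Igkc) were also at least 1.5-fold lower in naive CD4+ T cells, where Oas3 was under the UMI limit. Among the 15 interferon list genes called, 14 were, against 0.796% of all genes tested in naive CD4+ T cells. Ly6c2, a gene of the rule, had 102 and 37 UMIs in members, and 29.1 CPM and 10.2 CPM describe cells in which it was the only memory gene allowed.

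Higher genes were modest in size. Npm3, a chaperone of the nucleolus, was at 107.4 CPM w/o and 146.5 CPM w/ butyrate (0.43, 0.26 to 0.64), Igfbp4 at 157.9 CPM and 207.0 CPM (0.38, 0.23 to 0.55) and Hnrnpab, an RNA-binding protein, at 136.5 CPM and 178.7 CPM (0.38, 0.22 to 0.56). Cap1 (0.36), Gspt1 (0.36), Hnrnpd (0.35), Pa2g4 (0.34), H2-DMa (0.33), Cotl1 (0.33), Ramp1 (0.33), Grk2 (0.31) and Vsir (0.31) completed the 12 highest at 100 CPM or more. With each cell thinned to 2000 UMIs before the rule, Gspt1, Hnrnpab and Pa2g4 were at -0.06, -0.04 and 0.02. The 16 genes past 1.5-fold all lay at or below 57.2 CPM w/ butyrate. Gm47283 (0.95, 0.69 to 1.54) and Smco4 (0.76, 0.45 to 1.45) had the largest ratios. In naive CD4+ T cells they were at 0.50 and 0.47. Id3, an inhibitor of E protein factors that is high in naive and memory T cells, had 118 and 208 UMIs, 33.7 CPM and 57.2 CPM (0.68, 0.43 to 1.10). In naive CD4+ T cells Id3 was at 38.3 CPM and 35.7 CPM (-0.09), and the difference between the cell types was not tested.

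**Figure D5:**
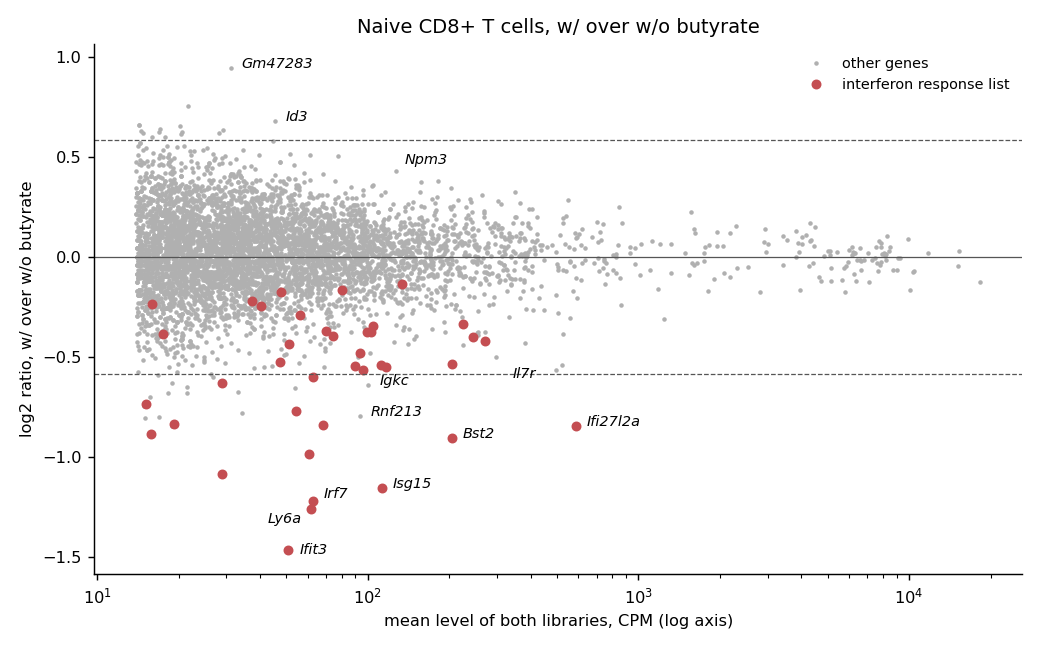
Log2 ratio of w/ over w/o butyrate, on the scale of log2(CPM + 5), against the mean CPM of both libraries (log axis) in naive CD8+ T cells, 1 point per gene with at least 100 UMIs and outside the rule, interferon response genes in red and dashed lines at 1.5-fold. The red points all lie below 0, down to Ifit3 at -1.47, while most other genes spread evenly around 0.

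Genes of the naive state were slightly lower on balance. Of the 26 list genes outside the rule that passed, 20 were below 0, against 45.3% of all genes tested. Their median was -0.14 against 0.02 for all genes, and none passed 1.5-fold. An interval below 0 was found for 12 and above 0 for 3, against 6.36% and 7.49% of all genes tested. Klf2, the factor of quiescence that drives S1pr1, was at 1912 CPM w/o and 1699 CPM w/ butyrate (-0.17, -0.22 to -0.12). Txnip, which restrains glucose uptake, was at 306.7 CPM and 235.6 CPM (-0.37, -0.51 to -0.25), Tsc22d3, a glucocorticoid-induced gene, at 487.5 CPM and 404.9 CPM (-0.26, -0.37 to -0.17), and the integrin chain Itga4 at 163.1 CPM and 119.6 CPM (-0.43, -0.63 to -0.27). S1pr1 (-0.06, -0.18 to 0.06), Satb1 (-0.06, -0.17 to 0.05) and Foxo1 (0.15, -0.06 to 0.38) had intervals that included 0. Tcf7 lay just above it (0.12, 0.01 to 0.24). In the CD8 lineage list Bcl11b, a factor of T cell identity, had the highest ratio, at 236.5 CPM and 294.1 CPM (0.31, 0.18 to 0.45), and in naive CD4+ T cells it was at 346.9 CPM and 436.9 CPM (0.33).

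Immediate early genes, which respond to receptor signals and also to tissue handling, were lower w/ butyrate by less than 1.5-fold. Of 19 that passed, 16 were below 0, against 45.3% of all genes tested, and 13 had an interval below 0, against 6.36%. Their median was -0.28, against 0.02 for all genes. Fos was at 348.7 CPM w/o and 245.2 CPM w/ butyrate (-0.50, -0.63 to -0.38), Jun at 289.6 CPM and 219.9 CPM (-0.39, -0.53 to -0.26), Junb at 598.4 CPM and 456.9 CPM (-0.39, -0.48 to -0.30) and the early activation marker Cd69 at 436.1 CPM and 322.7 CPM (-0.43, -0.55 to -0.32). Nr4a1, a reporter of receptor signalling, had 25 and 35 UMIs and did not pass. Egr1 was at 17.4 CPM and 23.9 CPM, with an interval that included 0 (-0.03 to 0.95). The heat shock list had a median of -0.16 over 10 genes, with Dnajb1 lowest at 119.4 CPM and 84.1 CPM (-0.48, -0.72 to -0.29). Naive CD4+ T cells had medians of -0.32 and -0.31 for these lists. In B cells of the same libraries 13 of the same 19 immediate early genes were above 0, with a median of 0.11, and all 10 heat shock genes were below 0, with a median of -0.21. No share or median over all genes is given for B cells, so these counts have no background beside them. B cells had Fos at 587.4 CPM w/o and 675.2 CPM w/ butyrate, Junb at 726.6 CPM and 846.2 CPM, Cd69 at 475.8 CPM and 514.9 CPM and Jun at 462.1 CPM and 431.2 CPM. The part of handling in these values was not tested.

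Receptor and metabolic lists had medians near that of all genes, but most glycolysis genes lay above 0. The T cell receptor list had a median of 0.03 over the 19 genes outside the rule, with Lck at 0.05 and Zap70 at 0.14. Cytokine receptors other than Il7r and Ifngr1 spread around 0, with a list median of 0.00 over 15 genes. Il2rb was at 39.7 CPM and 38.8 CPM and Il2rg, the common γ chain, at 272.8 CPM and 247.9 CPM (-0.13). Of 6 activation and checkpoint genes that passed, the median was -0.09, and Havcr2, Tigit and Il2 were at 0 in both libraries. Glycolysis genes had a median of 0.07 over 12 genes. Of these, 10 were above 0 and 2 below, against 45.3% of all genes tested below 0. An interval above 0 was found for 3 and below 0 for 1, against 7.49% and 6.36% of all genes tested. They ranged from Pfkl at 26.3 CPM and 18.1 CPM (-0.43, -1.01 to -0.06) to Tpi1 at 19.7 CPM and 31.1 CPM (0.55, 0.21 to 1.11). Ldha was at 210.5 CPM and 251.2 CPM (0.25, 0.11 to 0.40) and Pkm at 132.0 CPM and 160.8 CPM (0.28, 0.11 to 0.46). In naive CD4+ T cells the log2 ratios were 0.17 for Pfkl, 0.39 for Tpi1, -0.11 for Ldha and -0.02 for Pkm.

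The genes through which butyrate is known to act were low or alike. The G protein-coupled receptors Ffar3 and Hcar2 and the transporters Slc16a7 and Slc5a8 had no UMI in members, and Ffar2 had 0 and 1. As a one-sided 95% limit, a count of 0 allows up to 3 UMIs among 3501239 or 3637827. The transporter Slc16a1 had 42 and 59 UMIs (0.32, -0.16 to 1.04), and its chaperone Bsg was at 97.7 CPM and 101.7 CPM (0.06, -0.16 to 0.27). Among the histone deacetylases that butyrate inhibits, Hdac1 was at 60.3 CPM and 63.8 CPM, Hdac2 at 31.4 CPM and 34.1 CPM and Hdac3 at 19.4 CPM and 18.4 CPM, each with an interval that included 0. Hdac7, which holds back cytotoxic genes in T cells, was at 90.8 CPM and 99.2 CPM (0.12, -0.09 to 0.35).

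Memory and effector genes ranged widely in level, and the 32 outside the rule summed to 1015 CPM w/o and 985 CPM w/ butyrate. The 12 outside the rule that passed had a median log2 ratio of 0.06, and 1 of them, Ly6a, was 1.5-fold lower. Ly6a, which interferon induces and the interferon list also holds, was at 89.1 CPM and 34.4 CPM (-1.26, -1.69 to -1.07). Cd160 was at 13.7 CPM and 22.5 CPM (0.56, 0.19 to 1.26) and Lgals1 at 65.1 CPM and 86.3 CPM (0.38, 0.16 to 0.66). Prf1, the pore-forming perforin, had 122 and 149 UMIs (0.21, -0.12 to 0.59), while Gzmb had 3 and 1.

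RNA of other cell types was present at low levels and in part differed between the libraries. The 16 B cell markers summed to 603 CPM w/o and 558 CPM w/ butyrate in members, with Ighm the most abundant (247.6 CPM and 243.6 CPM), and Cd79a and Cd79b at 0 by the rule. Igkc was at 123.4 CPM and 77.5 CPM in members (-0.64), beside 16775 CPM and 11350 CPM in B cells. The 11 plasma cell markers summed to 62.8 CPM and 25.6 CPM, with Sdc1 and Tnfrsf17 at 0. Ighg1 had 65 and 2 UMIs in members and Ighg2c 46 and 0, and in B cells Ighg1 was at 674.4 CPM and 40.7 CPM. The 65 Ighg1 UMIs lay in 63 of 608 members, with at most 2 in a cell.

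Markers of further types, apart from Nkg7, were low or absent. The 15 myeloid and dendritic cell markers summed to 96.8 CPM and 89.9 CPM, of which Cst3 gave 88.3 CPM and 80.3 CPM, and Csf1r, Clec9a, Flt3, Itgax and Siglech were at 0 in both libraries. The 10 natural killer and NKT cell markers summed to 471 CPM and 512 CPM, nearly all from Nkg7, with Klre1, Klra8, Klra4 and Zbtb16 at 0. The 12 γδ T cell markers summed to 77.7 CPM and 72.8 CPM, and Trdc among them had 47 and 29 UMIs (13.4 CPM and 7.97 CPM). The 10 CD4+ T cell markers summed to 93.7 CPM and 95.1 CPM, with Izumo1r the most abundant, detected in 10.4% and 13.5% of members. Erythroid and platelet markers summed to 0.571 CPM and 6.87 CPM, the latter mostly Hbb-bs with 16 UMIs in 16 cells. The part of this RNA in the differences between the libraries was not tested.

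The most abundant RNAs outside the mitochondrial genes and those named as ribosomal proteins (Rpl and Rps) were Malat1 (19081 CPM w/o and 17533 CPM w/ butyrate), Tpt1 (15115 and 15458 CPM), Gm42418 (10656 and 9523 CPM), Tmsb4x (9605 and 10239.9 CPM), Eef1a1 (7650.2 and 8033 CPM) and Fau, which encodes a ribosomal protein under another name (7824 and 7462 CPM). They had the same leading RNAs, Malat1 and Tpt1, in both libraries.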

How the data were processed

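Cells were examined in 2 droplet libraries, 1 w/o and 1 w/ butyrate, with 4 mice pooled in each. The authors deposited raw UMI counts per gene and cell (31053 genes), made with Cell Ranger 6.0.1 on mm10 per the labels, and not normalized. Cells past the study's filters on mitochondrial UMIs (over 10%) and genes (under 200) were still in these counts and were removed here. The study also excluded doublets. Here doublets were not removed, except in an alternative with Scrublet (scanpy 1.11.5) that took out the 721 and 592 cells with the highest scores.

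Members and gene lists were chosen with earlier results of these data known. Summed UMIs of members were scaled to CPM in each library, 5 CPM were added and the log2 ratio was taken, for genes with at least 100 UMIs. With 1 library per condition no test was made and genes were called by fold (1.5 between libraries, 2 between cell types). Shares have exact binomial (Clopper-Pearson), levels exact Poisson and ratios exact conditional binomial 95% intervals, the last without the pseudocount, so that they can lie beyond the ratio for low genes. The genes named were those of the rule and lists, the 12 highest and 12 lowest in each ratio at 100 CPM or more, the 6 most abundant, and Trbv segments. A few of these genes are not reported here. The few 1.5-fold genes named below 100 CPM outside the lists (Oas3, Gbp9, Id3, Gm47283, Smco4, and the other lower ones, Kat2b and Asb13 among them) were chosen after their values were seen. Of 31053 gene identifiers, 30934 matched GENCODE M21 (GRCm38). Promoters came from RefSeq (GRCm38.p6). The calculation of ratios was first tested on simulated counts. Python 3.11.15, numpy 2.4.6, pandas 2.3.3, scipy 1.17.1 and matplotlib 3.10.9 were used.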

Additional observations from a re-analysis of the deposited data

How the results depend on the processing

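No paired analysis was possible because each group had 1 library. No library could be left out for the same reason, so no value has a replicate check, and counting depth limits genes under 100 UMIs and cells that lack a UMI of a rule gene. Of 141 values of the 10 main results under the alternatives, 21 moved. The median of the interferon response list stayed between -0.93 and -0.45, that of the immediate early list between -0.51 and -0.23 and that of the naive state list between -0.30 and -0.09.

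With none of the 6 memory genes allowed, 77 and 50 cells were left. The log2 ratio of the share of all cells was then -0.48 and that of the share of CD8+ T cells -0.475, the list medians were -0.93 (interferon), -0.51 (immediate early) and -0.30 (naive state), and 8 genes were 2-fold higher than in naive CD4+ T cells. With each cell thinned before the rule (765 and 748 members), the log2 ratio of the share of all cells turned to 0.10 (-0.04 to 0.25), and 12 genes were 2-fold lower than in naive CD4+ T cells. The counts of 1.5-fold lower and higher genes were 53 and 50 with a pseudocount of 1 CPM, 71 and 68 with at least 20 UMIs and 5 and 0 with at least 500 UMIs, and 28 genes were higher with totals without ribosomal, mitochondrial and immunoglobulin genes. Those of 2-fold higher and lower genes against naive CD4+ T cells were 59 and 58 with at least 20 UMIs and 10 and 12 with at least 500 UMIs, where fewer genes were tested. The log2 ratio of the share with at least 5 interferon response UMIs was -0.026 without thinning and -0.15 with at least 3 UMIs, where more cells passed. Of the named genes, Isg15 moved to -2.46 with no memory gene allowed, Bst2 to -0.62 and Ifi206 to -0.37 with thinning before the rule, and Ccr9 in naive CD8+ over naive CD4+ T cells ranged from 3.43 (thinned) to 5.18 (pseudocount of 1 CPM).

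Members numbered 898 and 737 without Ly6c2 in the rule. After seeing the data, 2 further rules were added. Without Nkg7 there were 996 and 851 members, and with 1 Cd79a or Cd79b UMI allowed 776 and 681, with interferon medians of -0.59 and -0.54.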

Other observations

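Some low counts lay outside the comparisons of the text. Xcl1, a chemokine that attracts cross-presenting dendritic cells, had no UMI in members w/o butyrate and 28 UMIs w/ butyrate, which lay in 7 of 526 cells, 13 of them in a single cell. Tnfrsf9, the co-stimulatory receptor 4-1BB, had 8 UMIs in 7 cells and 22 UMIs in 13 cells. Slc2a1, a glucose transporter, had 11 UMIs in 11 cells w/o and 36 UMIs in 36 cells w/ butyrate. None of these genes reached the limit of 100 UMIs, and they were picked out after their values were seen. Kat2b (22.8 CPM and 11.0 CPM, -0.80) and Asb13 (44.6 CPM and 23.9 CPM, -0.78) were lower w/ butyrate in naive CD8+ T cells, beside log2 ratios of 0.16 and -0.01 in naive CD4+ T cells. These 2 genes were also picked out after their values were seen, and the difference between the cell types was not tested.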
